A study of Mus musculus with 140 samples.

Results

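The comparison concerned the renal peritubular compartment 4 h after the onset of abdominal sepsis. Its members were the 8 libraries whose labels give the microvascular compartment as peritubular capillaries and the time as 4 h, out of 140 libraries in the series. They came from 8 male wild-type C57BL6/OlaHsd mice: 4 were sham-operated, and 4 had undergone CLP (cecal ligation and puncture, in which the gut is opened so that its bacteria reach the abdominal cavity). Each mouse gave 1 peritubular library, taken from the kidney by laser microdissection and made with Lexogen QuantSeq, which reads the 3′ end of polyadenylated RNA. The same mice gave arterioles, glomeruli, post-capillary venules and whole kidney, used here only beside the peritubular values, as were the peritubular libraries of 4 healthy mice at 0 h. Healthy mice differ from sham mice in both the operation and the time. The sources used here give no age of the mice and do not say how the capillary areas were drawn. The series asks how gene expression in the renal microvasculature is altered in sepsis-induced acute kidney injury. The comparison was made in edgeR on the 8 libraries alone, and a gene passed when its p, adjusted by the Benjamini-Hochberg method over all genes tested, was under 0.05.

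Peritubular capillaries are the fenestrated vessels that surround the cortical tubules and take back what the tubules reabsorb. Their endothelium lies next to the basement membrane of proximal tubule cells. In sepsis, bacterial products and cytokines act on both cell types through NF-kB and STAT3, and the stress axis adds glucocorticoid. Metallothioneins, small proteins that bind zinc and copper, are known to be induced by metals, through metal response elements in their promoters, and also by glucocorticoid and cytokines.

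The promoters of Mt1 and Mt2, the genes on which the comparison turned, are shown because both members of this neighbouring pair rose. Each window holds the 300 bases around the start site, most of them upstream (RefSeq, build GRCm38.p6, plus strand). Capitals mark each match of the metal response string TGCNCNC on either strand. N stands for any base, so the string is loose and a match need not fit a stricter form of the element. Mt2 lies at chr8:94172368-94172667 and Mt1 at chr8:94178839-94179138.

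Mt2 promoter: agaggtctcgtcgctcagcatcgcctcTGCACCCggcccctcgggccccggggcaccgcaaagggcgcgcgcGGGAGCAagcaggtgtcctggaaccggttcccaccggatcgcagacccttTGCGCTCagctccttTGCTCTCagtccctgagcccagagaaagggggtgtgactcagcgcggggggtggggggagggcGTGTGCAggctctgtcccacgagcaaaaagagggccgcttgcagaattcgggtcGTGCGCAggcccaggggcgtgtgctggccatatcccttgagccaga
Mt1 promoter: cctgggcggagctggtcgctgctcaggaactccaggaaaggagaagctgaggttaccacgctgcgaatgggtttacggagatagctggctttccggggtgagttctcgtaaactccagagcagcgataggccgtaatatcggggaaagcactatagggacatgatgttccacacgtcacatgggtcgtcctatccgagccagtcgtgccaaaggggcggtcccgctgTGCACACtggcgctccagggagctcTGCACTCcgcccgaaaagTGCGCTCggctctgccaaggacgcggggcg

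The Mt2 window held 6 matches and the Mt1 window 3, against at least 1 in 51% and at least 3 in 7.1% of the 32851 promoter windows of that length. The glucocorticoid response string, GNACA and TGTNC with 3 bases between them, matched 1 time in Mt1 and 0 times in Mt2, and occurred in 0.475% of windows. A kappaB string, GGG and CC with 5 bases between them, matched at 2 positions in Mt1, which overlap each other, and 0 in Mt2 (50.8% of windows hold one). The AP-1 string TGANTCA matched 0 times in Mt1 and 1 time in Mt2 (7.81% of windows). All strings were searched on both strands, and no match of one overlapped a match of another. A match is a description of the letters and not a shown binding site. Mt2 (ENSMUSG00000031762) spans chromosome 8, 94172664 to 94173568, and Mt1 (ENSMUSG00000031765) 94179082 to 94180327, both on the plus strand of GRCm38, with 5513 bases between them. A predicted gene, Gm45774, overlaps Mt2 on the opposite strand, and the strand setting of the counting is not given in the sources used here.

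The 8 libraries held 5449314 to 10942956 counts, and 10950 to 13079 genes were detected in sham and 11522 to 13327 in CLP libraries (exact two-sided permutation p = 0.429, adjusted over 4 library measures 0.571; the smallest p that 70 splits allow is 0.0286). Of 34255 genes in the table, 7676 (22.4%) had a count in each of the 8 libraries, against 15277 in the 8 whole kidney libraries of the same mice. The biological coefficient of variation of the fit was 1.22, against 0.204 in whole kidney. Pairs of peritubular libraries correlated at 0.45 to 0.60 within groups and 0.47 to 0.61 between groups (log CPM across genes, which are not independent replicates). CPM of single genes are counts scaled to an equal library total after TMM. Sums over gene lists were scaled by library totals alone, without the TMM factors, so they are not in the same unit as the single genes beside them. A level of 3 counts, taken as the limit that no count allows, came to 0.25 to 0.554 CPM, and reads without molecular identifiers make this a bound on counting error only. Sham replicate 2 stood apart, with a TMM factor of 0.764 against 0.974 to 1.117 in the 7 others.

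Checked against their markers, the libraries carried far more counts of tubule markers than of endothelial markers. The 24 proximal tubule markers summed to 121000 to 136000 CPM in sham and 110000 to 136000 in CLP libraries, led by Kap, an androgen-regulated tubule protein, at 68470 ± 14450 and 58600 ± 8027 CPM (SD, n = 4 each). The 16 markers of endothelium in general summed to 789 to 958 and 454 to 916 CPM. The 13 markers of peritubular and venous endothelium summed to 547 to 1300 and 1120 to 1390 CPM. The highest was Car4, a membrane-bound carbonic anhydrase, at 380 ± 107 and 430 ± 86.1 CPM. Plvap, of the same list, was at 62.6 ± 28.8 and 84.2 ± 69.6 CPM. Whether the Car4 counts came from capillaries or from tubule was not tested. Ackr1, which marks venules, had no count in any of the 8. In a compartment read in bulk, fewer cells of a type and less RNA per cell cannot be told apart. The name peritubular therefore stands below for the microdissected compartment and not for a pure cell type.

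Few genes passed against this spread. Of 8860 genes tested, 4 passed (0.0451%), of which 3 were higher (0.0339%) and 1 lower (0.0113%) with CLP. The metallothioneins Mt1 and Mt2 were among those that rose, and the gene that fell was D630029K05Rik, a long noncoding RNA. At an unadjusted p under 0.05 there were 348 genes (3.93%), 141 with a positive and 207 with a negative fold change, and the median log2 fold change over all genes was −0.15. DESeq2 called 93 genes at the same threshold, 59 higher and 34 lower, including the 4 of edgeR. With all 28 peritubular libraries of the series in the fit, 0 of 11772 genes passed in edgeR and 384 had an unadjusted p under 0.05.

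A further description is the number of genes whose CLP and sham values did not overlap. The 4 passing genes were among the 7223 tested genes counted in all 8 libraries (0.0554%). Of these 7223, every CLP library exceeded every sham library for 135 (1.87%), and every CLP library lay below every sham library for 109 (1.51%). Over all 8860 genes these numbers were 180 (2.03%) and 116 (1.31%). A gene barely counted in sham libraries was tested only if its CLP counts met the filter, and the reverse. Non-overlap of such genes is in part set by the filter. Scatter depended on level, with a median coefficient of variation of 1.21 for genes under 20 CPM and 0.29 for genes at 500 CPM and over. Of the 4 genes that passed, 2 were among the 227 at 500 CPM and over.

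**Figure D1:**
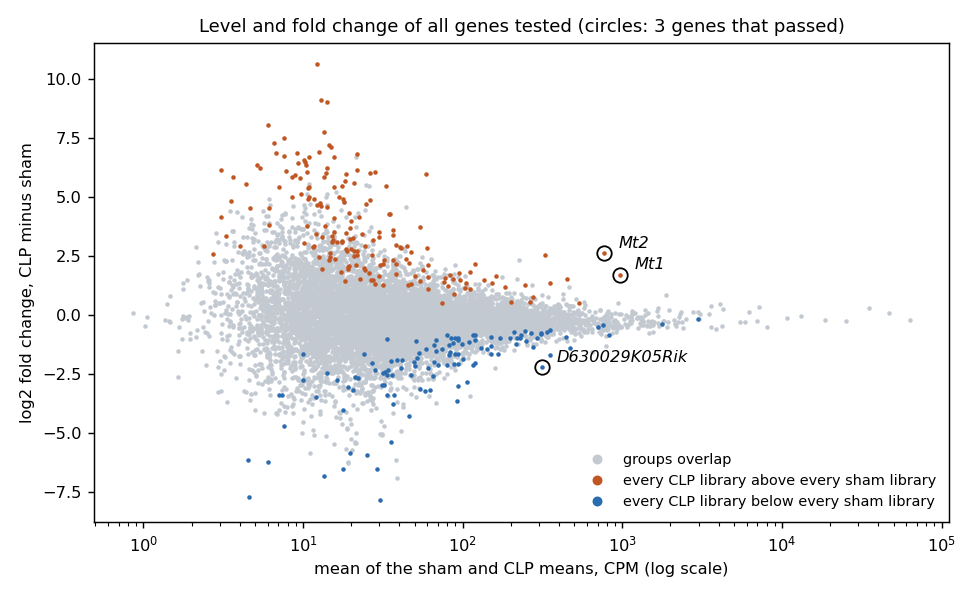
Mean level of each of the 8860 genes tested (x axis, CPM, log scale) against its log2 fold change, CLP minus sham (y axis). Orange and blue points are genes whose 4 CLP and 4 sham libraries did not overlap, grey points the others, and circles 3 genes that passed. The cloud narrows from left to right, and Mt1 and Mt2 stand above it at high level.

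Metallothioneins showed the clearest change. Mt2 was read at 261, 145, 129 and 324 CPM in sham replicates 1 to 4 and at 1651, 1277, 1172 and 1160 CPM in CLP replicates 1 to 4. Every CLP library lay above every sham library, by a margin larger than the spread within either group. Mt2 rose by 2.61 ± 0.36 on the log2 scale (fitted value ± SE, adjusted p = 5.1e-05), the smallest p of the comparison, from 215 ± 93.7 to 1315 ± 230 CPM. The SE of fold changes, here and below, was back-calculated as the absolute fold change divided by the square root of its F statistic. The call held without each of the 8 libraries in turn and in every alternative run except the fit of all 28 libraries (adjusted p = 1).

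Mt1 stood at 507, 396, 342 and 566 CPM in the sham and at 2196, 915, 1610 and 1220 CPM in the CLP libraries. The groups did not overlap, and CLP replicate 1 was the highest for both genes. Mt1 rose by 1.71 ± 0.33 (adjusted p = 0.0244). The fold change was 1.47 to 1.89 when any 1 library was left out, but 5 of these 8 fits no longer gave a call, those that left out sham 1, sham 2, sham 3, CLP 1 or CLP 3 (adjusted p 0.0503 to 0.235), nor did RLE scaling (adjusted p = 0.0637). Mt1 and Mt2 have similar coding sequences, and how reads that fit both were counted is not given in the sources used here. In healthy mice the levels were 200 to 271 CPM for Mt1 and 64.2 to 274 CPM for Mt2, scaled together with the 8 libraries. The healthy value of Mt2 in replicate 4, 274 CPM, lay inside the sham range.

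The rest of the metallothionein and zinc list gave no call. Of 14 members 11 were tested, and 0 of the 9 others passed. Mtf1, the factor that binds metal response elements, was at 43.6 ± 49 CPM in sham and 7.26 ± 7.94 CPM in CLP libraries, which overlapped. Slc30a2, a vesicular zinc exporter, was at 122 ± 150 CPM in sham and 122 ± 28 CPM in CLP libraries. Slc30a1, the zinc exporter of the cell surface, was at 52.2 ± 76.6 and 35.6 ± 13.9 CPM. The median of the 11 was 0.05, against −0.15 for all genes.

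**Figure D2:**
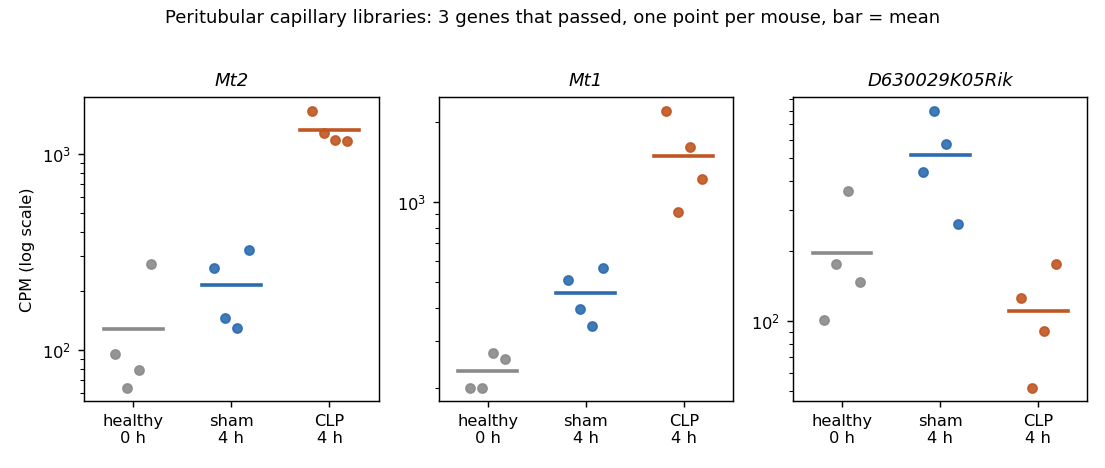
CPM on a log scale in peritubular libraries of healthy mice at 0 h and of sham and CLP mice at 4 h, one point per mouse and a bar at the mean of 4, for 3 genes that passed between CLP and sham. Healthy values come from a scaling of 12 libraries together. CLP and sham points do not overlap in any panel.

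D630029K05Rik, annotated as a long intergenic noncoding RNA (ENSMUSG00000031294, chromosome 10, 116964707 to 116969105, plus strand), was the 1 gene that fell. Its levels were 437, 797, 576 and 261 CPM in sham and 126, 51.9, 90.4 and 175 CPM in CLP libraries. The lowest sham library exceeded the highest CLP library. It fell by 2.22 ± 0.45 (adjusted p = 0.0295). Healthy libraries lay between, at 101 to 361 CPM, and overlapped both groups. Leaving out sham 1, sham 2, sham 3 or any of CLP 1 to 3 ended the call (adjusted p 0.0683 to 0.316), with fold changes from −2.32 to −1.96. It also missed the threshold without the robust fit (adjusted p = 0.0667), with voom and quality weights (0.228) and with healthy mice in the fit (0.0591). A gene on the other strand, Gm10271, overlaps it, so that reads of both cannot be told apart without strand.

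Genes that glucocorticoid is known to induce included both metallothioneins. Of 16 list members, all tested, 2 passed, both higher, and 6 had CLP values that did not overlap sham (2.03% of all genes tested did so in that direction). The median was 1.53 against −0.15 for all genes, and the list summed to 2060 to 3580 CPM in sham and 5650 to 7620 CPM in CLP libraries. These sums include Mt1 and Mt2, the 2 that passed. After TMM, their means were 453 and 215 CPM in sham and 1485 and 1315 CPM in CLP libraries. Of the 16, 13 had a positive fold change. Fkbp5 (−0.10), Per1 (−1.25) and Zbtb16 (−0.02) were negative, Sgk1 was at 0.37, and all 4 overlapped between groups. Lcn2, among the 6, met the count filter only with its CLP libraries. Nfkbia, the inhibitor of NF-kB, which both NF-kB and glucocorticoid induce, was at 270, 123, 132 and 274 CPM in sham and 660, 463, 489 and 415 CPM in CLP libraries. All 4 CLP values exceeded the sham values (1.34 ± 0.41, unadjusted p = 0.00191, adjusted p = 0.675). Cebpd, a transcription factor of the acute phase, was at 1.61, 1.88, 2.06 and 24.3 CPM against 70.2, 61.1, 134 and 135 CPM, with sham replicate 4 the highest sham value (3.74 ± 1.20, adjusted p = 0.789).

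Ddit4, an inhibitor of mTORC1, lies outside the rule for named genes and was singled out after its values were seen. It was at 130, 8.87, 16.5 and 230 CPM in sham and 489, 384, 712 and 666 CPM in CLP libraries, with no overlap (2.55 ± 0.83, adjusted p = 0.944). Sham replicates 2 and 3 were far below the other sham values. It passed in DESeq2 (adjusted p = 0.0332) and without the filter on low counts (adjusted p = 0.000504). Klf9, a glucocorticoid-induced repressor and the member of highest level in sham libraries, was at 1089 ± 276 CPM in sham and 1209 ± 139 CPM in CLP libraries, which overlapped.

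Of the chemokine and growth factor genes, Cxcl1 and Csf1 were barely counted in sham libraries. Cxcl1, which attracts neutrophils, was at 0.179, 0.512, 0.433 and 0.319 CPM in sham libraries, 1 to 4 reads each, and at 50.5, 83.3, 14.6 and 23.6 CPM in CLP libraries, 79 to 540 reads each. Every CLP mouse was far above the 3-count level and every sham mouse near it, but the gene did not pass (6.83 ± 2.03, unadjusted p = 0.00163, adjusted p = 0.629 in edgeR, 5.6e-06 in DESeq2). Fitted fold changes of genes with so few reads in one group depend on the prior count and bound nothing. Csf1, the growth factor of macrophages, had 0, 1, 0 and 5 reads in sham and 555, 85, 212 and 73 reads in CLP libraries (adjusted p = 0.789). Cxcl12, a chemokine of vessels and stroma, was at 97.9 ± 44.5 CPM in sham and 22.7 ± 20.5 CPM in CLP libraries, which overlapped (−2.11 ± 1.04, unadjusted p = 0.0492). Of 30 cytokines and chemokines 6 were tested, 0 passed, 2 were non-overlapping and higher (2.03% of all genes tested were), and the median was 1.69, against −0.15 for all genes. These were Cxcl1 and Csf1, which met the count filter only with their CLP libraries. The median and the non-overlap of this list are therefore in part set by the filter and are no support for a rise.

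Lcn2, an iron-sequestering protein of neutrophils and stressed tubules, was at 1.07, 0.853, 0.867 and 0.532 CPM in sham and at 137, 9.26, 71 and 4.51 CPM in CLP libraries. CLP mice 1 and 3 were high, and mice 2 and 4 lower but above every sham mouse (6.04 ± 1.83, adjusted p = 0.685 in edgeR, 0.000146 in DESeq2). Cp, the copper carrier ceruloplasmin, was at 50.9 ± 36.7 and 141 ± 28.3 CPM, also without overlap (1.47 ± 0.72, unadjusted p = 0.0468). Cfb, complement factor B, was at 196 ± 45.7 in sham and 122 ± 43.1 CPM in CLP libraries. Of 26 genes of the acute phase and complement 14 were tested and 0 passed, with a median of 0.70 and sums of 450 to 659 against 742 to 899 CPM.

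The NF-kB list, which includes Nfkbia and Cebpd, was mixed. Of 23 members 15 were tested, 0 passed, 8 had a positive fold change, and the median was 0.10, against −0.15 for all genes. Sod2, the mitochondrial superoxide dismutase, was at 350 ± 103 CPM in sham and 334 ± 84 CPM in CLP libraries. Tnip1, which restrains NF-kB, was at 0.536, 12.8, 0.542 and 0.532 CPM in sham and 171, 4.01, 134 and 29.5 CPM in CLP libraries, so that CLP replicate 2 lay under sham replicate 2 (4.56 ± 1.49, adjusted p = 0.789). Ier3, an early survival gene, was at 57.4 ± 45.2 and 92.2 ± 45.7 CPM.

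The IL-6 and STAT3 list held 15 genes, of which 13 were tested, 0 passed and 3 were non-overlapping and higher, against 2.03% of all genes tested (median 0.76, against −0.15). Stat3 itself was at 99.4, 8.01, 239 and 239 CPM in sham and 379, 351, 284 and 376 CPM in CLP libraries, which were even among themselves and above each sham value (1.25 ± 0.57, unadjusted p = 0.0356, adjusted p = 0.999). Socs3, its feedback inhibitor, was at 0.358 to 0.542 CPM in sham, 2 to 5 reads, and at 20.3, 9.72, 43.4 and 12.3 CPM in CLP libraries (5.41 ± 2.15, adjusted p = 0.989 in edgeR, 0.0108 in DESeq2). Socs3 met the count filter only with its CLP libraries, so its place among the 3 is in part set by the filter. Jak1, a kinase upstream of STAT3, was at 243 ± 64.3 and 166 ± 80.7 CPM.

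Immediate early genes, transcribed within minutes of a stimulus, gave no call. Of 23 members 12 were tested, 0 passed, 4 were non-overlapping and higher, against 2.03% of all genes tested, and the median was 1.53, against −0.15 for all genes, with sums of 145 to 244 CPM in sham and 322 to 706 CPM in CLP libraries. Junb, a subunit of AP-1, was at 1.07, 2.05, 16.5 and 2.02 CPM in sham and 102, 38.7, 44.5 and 31.2 CPM in CLP libraries (3.32 ± 1.56, unadjusted p = 0.0393). Zfp36, which destabilises cytokine mRNA, was read 1 to 4 times in each sham library and at 32.1, 16.4, 28.1 and 6.34 CPM in CLP libraries (6.05 ± 2.25, adjusted p = 0.944 in edgeR, 0.00798 in DESeq2). Zfp36, 1 of the 4 non-overlapping members, met the count filter only with its CLP libraries. The list's non-overlap and median are therefore in part set by the filter. Dusp1, a phosphatase of MAP kinases, was at 104, 1.54, 41.1 and 16.8 CPM against 135, 110, 240 and 56 CPM, and CLP replicate 4 overlapped sham replicate 1 (1.73 ± 0.85).

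Among 13 Kruppel-like factors 10 were tested, 0 passed, and the median was 0.53. Klf13, a regulator of lymphocyte and cardiac genes, was at 172, 3.58, 121 and 150 CPM in sham and 401, 211, 210 and 200 CPM in CLP libraries (1.20 ± 0.63, unadjusted p = 0.0636). The groups did not overlap, with sham replicate 2 low and CLP replicate 1 high. Klf4, a factor of quiescent endothelium, was at 1.92 ± 1.96 and 16.3 ± 11.6 CPM, which overlapped.

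**Figure D3:**
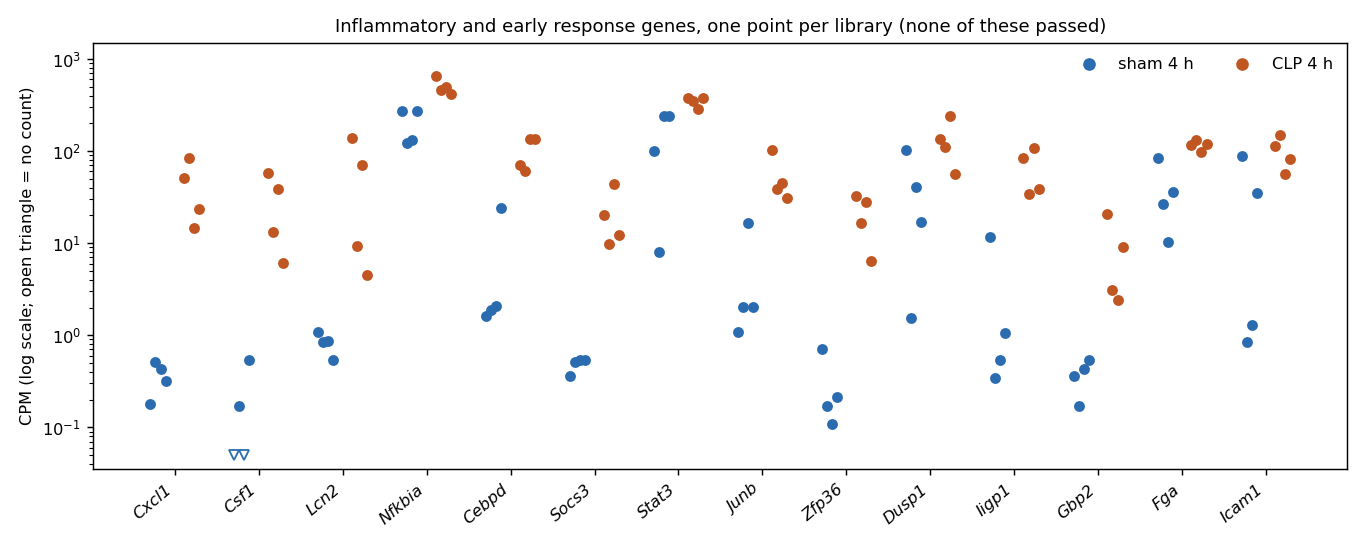
CPM on a log scale of 14 cytokine, NF-kB, STAT3, early response, interferon, fibrinogen and adhesion genes in the 4 sham (blue) and 4 CLP (orange) libraries, one point per library, with open triangles for libraries without a count. Sham values of Cxcl1, Lcn2, Socs3 and Zfp36 lie near 1 CPM or under it and CLP values between 4.51 and 137 CPM, while Dusp1 and Icam1 overlap.

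Interferon-induced genes gave no call. Iigp1, a GTPase that attacks vacuoles of intracellular pathogens, was at 11.6, 0.341, 0.542 and 1.06 CPM in sham and 83.5, 34.1, 107 and 38.2 CPM in CLP libraries, without overlap (4.28 ± 1.56, unadjusted p = 0.009, adjusted p = 0.944). Gbp2 was read 1 to 5 times in sham libraries and stood at 20.9, 3.09, 2.4 and 9.18 CPM in CLP libraries. Gbp5, of the same family, was at 51.2 and 50.2 CPM in CLP replicates 1 and 2 but at 0.185 and 1.17 CPM in replicates 3 and 4. Of 28 list members 17 were tested, 0 passed, and the median was 0.27.

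Coagulation genes gave no call. Of 22 procoagulant genes 8 were tested, with a median of 0.13, and of 15 anticoagulant genes 8, with a median of 0.47. Fga, the alpha chain of fibrinogen, was at 84.6, 26.4, 10.3 and 36.3 CPM in sham and at 117, 131, 98.7 and 118 CPM in CLP libraries, all above sham (1.56 ± 0.83, unadjusted p = 0.0657). Fgg, the gamma chain, had 24, 0, 1 and 1 reads in sham and 119 to 337 reads in CLP libraries (adjusted p = 0.999). These were the 2 procoagulant genes whose groups did not overlap, against 2.03% of all genes tested in that direction. Fgg met the count filter only with its CLP libraries.

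Thbs1, thrombospondin, was at 13.2, 0.341, 0.108 and 1.28 CPM in sham and 113, 59.7, 5.36 and 19.6 CPM in CLP libraries, which overlapped (3.72 ± 1.75, unadjusted p = 0.0391). Thbd, thrombomodulin of the endothelial surface, was at 60 ± 14.2 and 30.9 ± 20.2 CPM, and Proc, the protein C that it activates, at 364 ± 109 and 247 ± 117 CPM. Plau, urokinase of the tubule, was at 74 ± 54.2 in sham and 19 ± 12.9 CPM in CLP libraries (−1.96 ± 1.18, unadjusted p = 0.104). The 6 tested genes of fibrinolysis had a median of −0.45.

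Leukocyte adhesion molecules were scattered. Icam1, the endothelial and epithelial ligand of leukocyte integrins, was at 89.1, 0.853, 1.3 and 34.7 CPM in sham and 113, 151, 56.2 and 81.6 CPM in CLP libraries. The single sham value of 89.1 CPM overlapped 2 CLP libraries (1.67 ± 1.04, unadjusted p = 0.117). Icam2, a constitutive endothelial ligand, was at 122 CPM in sham replicate 1 and at 0.924 to 4.68 CPM in the 7 others. Of 15 members 8 were tested, 0 passed in either direction, and the median was −0.24.

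Other non-overlapping higher genes taken by the rule for named genes did not pass either. Tmem252, a transmembrane protein, was at 149, 375, 105 and 292 CPM in sham and 527, 725, 572 and 841 CPM in CLP libraries (1.53 ± 0.40, unadjusted p = 0.000406, adjusted p = 0.327), and it passed when library totals alone set the scale (adjusted p = 0.0457). Sox4, a transcription factor of progenitor and injured epithelium, was at 27.2, 41.3, 51 and 53.1 CPM against 253, 227, 155 and 147 CPM (2.18 ± 0.62, adjusted p = 0.518 in edgeR, 0.00561 in DESeq2). Suz12, a subunit of the Polycomb repressive complex, Hyou1, a chaperone of the endoplasmic reticulum, and Lgals9, galectin 9, were at 0.783, 0.588 and 0.275 CPM on average in sham and at 51.4 ± 20.5, 42.8 ± 29.8 and 30.8 ± 6.44 CPM in CLP libraries.

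Agt, angiotensinogen, which the proximal tubule makes, was at 14, 10.4, 13.8 and 3.62 CPM in sham and 81.8, 91.8, 60.2 and 81.5 CPM in CLP libraries (2.92 ± 1.22, unadjusted p = 0.0213, adjusted p = 0.999). Spp1, osteopontin of injured tubules, was at 85.5, 36.8, 43.7 and 69.6 CPM against 184, 178, 111 and 130 CPM (1.36 ± 0.66, unadjusted p = 0.0458). Neither overlapped between groups. Healthy libraries held 15.2 to 90.9 CPM of Agt, all above the sham values and in part within the CLP range. Cdkn1a, an inhibitor of the cell cycle induced by damage, was at 75.1 ± 63.3 and 151 ± 50.6 CPM, which overlapped.

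**Figure D4:**
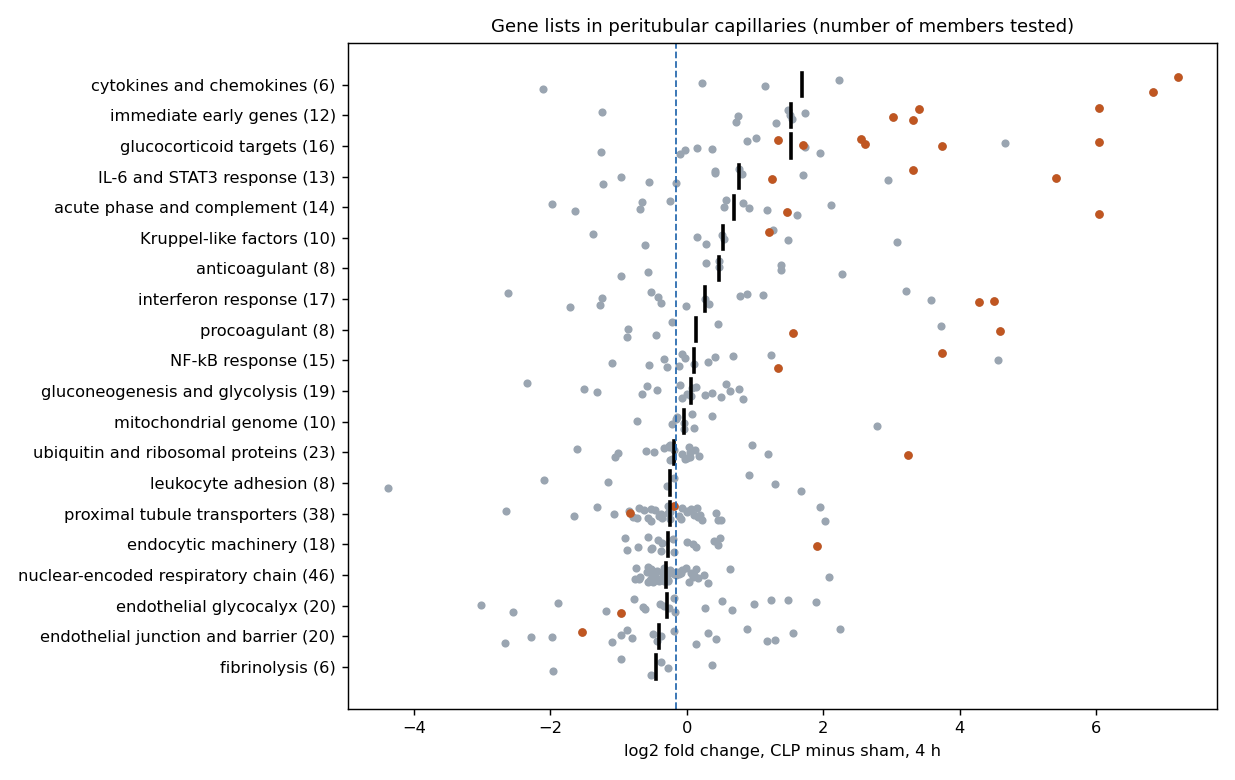
Log2 fold change, CLP minus sham, of each tested member of 20 gene lists (points; x axis), with the number tested beside the list name on the y axis. Orange points have groups that did not overlap, black bars are list medians, and the dashed line is the median of all genes tested, −0.15. The medians of immediate early genes and glucocorticoid targets are both 1.53, that of the respiratory chain −0.30.

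Genes lower with CLP, beside D630029K05Rik, were taken by the same rule and none of them passed. Prss8, the protease prostasin that activates the epithelial sodium channel, was at 350, 736, 771 and 295 CPM in sham and 183, 193, 186 and 100 CPM in CLP libraries (−1.70 ± 0.42, unadjusted p = 0.000215, adjusted p = 0.272). Slc5a10, a renal transporter of mannose and fructose, was at 469, 1473, 390 and 395 CPM against 178, 204, 329 and 323 CPM (−1.40 ± 0.41, adjusted p = 0.604). The groups did not overlap in either gene. In Slc5a10 sham replicate 2 was the high one, and the 3 other sham libraries lay just above the highest CLP library.

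Spg11, spatacsin of lysosome turnover, was at 38.5, 164, 12.9 and 26.4 CPM in sham and at 0.154 to 0.417 CPM, 1 to 5 reads, in CLP libraries (−7.85 ± 1.91, adjusted p = 0.26 in edgeR, 9.99e-09 in DESeq2). Scrn2, Trim11, 6430548M08Rik, Parp3, Gtf2i, Htt and Tmem25 had non-overlapping groups, with fold changes from −6.54 to −1.36 and adjusted p from 0.298 to 0.789. Sham replicate 2 held the highest value in 10 of the 12 lower genes that the rule took, and in 57 of the 109 non-overlapping lower genes counted in all 8 libraries. Without it, 2 genes passed in all, Mt2 among them, and 0 were lower.

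Transporters of the proximal tubule gave 0 calls among 38 tested. Slc34a1, the phosphate transporter, was at 9134, 12630, 7634 and 8752 CPM in sham and 4730, 5879, 8701 and 7103 CPM in CLP libraries, with CLP replicate 3 inside the sham range (−0.53 ± 0.24, unadjusted p = 0.0329, adjusted p = 0.999). It passed with voom and quality weights (−0.47, adjusted p = 0.0337), where sham replicate 2 had the lowest weight, 0.51. Slc22a8, an organic anion transporter, was at 1033, 1376, 965 and 872 CPM against 340, 566, 796 and 687 CPM, without overlap (−0.83 ± 0.33, unadjusted p = 0.0153). Aqp1, the water channel of proximal tubule and its capillaries, was at 806, 2325, 623 and 733 CPM against 659, 168, 480 and 487 CPM (−1.32 ± 0.40, unadjusted p = 0.00184), where CLP replicate 1 overlapped. The list's median was −0.25 and 13 of 38 fold changes were positive, against 3923 of 8860 over all genes.

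Genes of tubular endocytosis, which recovers filtered protein, had a median of −0.28 over 18 tested and 0 calls. Lrp2, the receptor megalin, was at 848 ± 106 CPM in sham and 750.5 ± 85.2 CPM in CLP libraries. Amn, amnionless, which anchors the partner receptor cubilin, was at 711 ± 519 and 386 ± 99.8 CPM (−0.88 ± 0.39, unadjusted p = 0.0298), and Gm2a, a lysosomal activator of lipid breakdown, at 1033 ± 420 and 553 ± 128 CPM (−0.90 ± 0.34, unadjusted p = 0.0117). Both overlapped between groups.

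Of 46 tested nuclear genes of the respiratory chain 0 passed, 10 had a positive fold change, and the median was −0.30, with sums of 25400 to 30200 CPM in sham and 20900 to 30200 CPM in CLP libraries. Sdha, a subunit of complex II, was at 738, 1296, 658 and 481 CPM against 516, 507, 439 and 490 CPM (−0.70 ± 0.34, unadjusted p = 0.0484). The CLP values lay close together and overlapped sham, with 439 CPM under the lowest sham value, 481 CPM, and the others above it. Transcripts of the mitochondrial genome made up 9.59 ± 1.08% of counts in sham and 10.6 ± 1.18% in CLP libraries (exact two-sided permutation p = 0.257, adjusted 0.514).

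Pck1, the rate-limiting enzyme of gluconeogenesis, was at 1969, 921, 1124 and 1342 CPM in sham and 1854, 2435, 1252 and 4013 CPM in CLP libraries, which overlapped (0.83 ± 0.31, unadjusted p = 0.0112). G6pc, glucose 6-phosphatase, was at 778 ± 404 and 1102 ± 291 CPM. Summed over the list of gluconeogenesis and glycolysis without TMM factors, levels were 8120 to 10700 CPM in sham and 11200 to 13900 CPM in CLP libraries. The TMM factor was 0.764 in sham replicate 2 and 1.002 to 1.117 in CLP libraries. Whether the sums stay apart after TMM was not tested. The 19 tested members had a median of 0.07 and 0 calls.

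Endothelial genes gave no call. Flt1, a VEGF receptor, was at 278, 601, 152 and 161 CPM in sham and 184, 193, 193 and 274 CPM in CLP libraries, and Kdr, the signalling VEGF receptor, at 91.7, 195, 206 and 120 CPM against 83.2, 12.8, 144 and 75.2 CPM. Emcn, an endothelial sialomucin, was at 136 ± 84.9 and 63.7 ± 35.1 CPM. Pecam1, another endothelial marker, was at 28 ± 21.7 and 68.9 ± 46.4 CPM. All of these overlapped. Of 15 tested markers of endothelium in general 0 passed and 6 had a positive fold change (median −0.50). Of 9 markers of peritubular and venous endothelium 0 passed and 7 had a positive fold change (median 0.26).

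In the list of junction and barrier genes 20 were tested and 0 passed (median −0.40). Vegfb, a VEGF ligand, was at 147, 122, 55.7 and 81.4 CPM in sham and 7.53, 52.8, 41.9 and 38.3 CPM in CLP libraries, just without overlap (−1.53 ± 0.89, unadjusted p = 0.0948). Of 20 tested glycocalyx genes 0 passed (median −0.29). Sdc2, a heparan sulfate proteoglycan of the cell surface, was at 209, 347, 288 and 199 CPM against 97.4, 116, 167 and 152 CPM, also without overlap (−0.97 ± 0.48, unadjusted p = 0.0495, adjusted p = 0.999).

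Neutrophil markers summed to 3.43 to 21.1 CPM in sham and 9.23 to 377 CPM in CLP libraries, and 3 of 18 could be tested, while Csf3r, Cxcr2, Ly6g and Stfa2l1 had no count in any of the 8. S100a8, a calcium-binding protein of neutrophils, was at 0.867 to 2.24 CPM in sham and 117, 11.6, 1.48 and 1.67 CPM in CLP libraries. S100a9, its partner, was at 45.8, 67.1, 53.8 and 0.417 CPM in CLP libraries, so CLP replicate 4 was at the sham level for both, and CLP replicate 3 for 1. The same libraries order differently for Lcn2, the other marker tested, and the part of neutrophils in the Lcn2 and Cxcl1 values was not tested.

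Csf1r, the receptor that macrophages need, was at 0.715, 190, 3.36 and 189 CPM in sham and 21.5, 1.39, 12.8 and 8.51 CPM in CLP libraries (−3.11 ± 1.29, unadjusted p = 0.0207). H2-Eb1, an MHC class II chain, was at 147, 152, 38.6 and 196 CPM against 20.2, 11.4, 32.5 and 101 CPM (−1.69 ± 0.80, unadjusted p = 0.0402). Sham libraries split widely for Csf1r. H2-Ab1, another MHC class II chain, was at 70.1 ± 31.3 and 110 ± 52.7 CPM, which overlapped. Csf1r and H2-Eb1 overlapped between groups too. Of 10 tested macrophage and dendritic cell markers 0 passed and 4 had a positive fold change (median −0.73). Of these 10, 1 had CLP values wholly above sham and 0 wholly below, against 2.03% and 1.31% of all genes tested. The list summed to 383 to 711 CPM in sham and 229 to 647 CPM in CLP libraries. Lymphocyte markers summed to 5.83 to 51.3 CPM in sham and 1.1 to 27 CPM in CLP libraries, and 0 of 18 could be tested. Aqp2, the water channel of collecting duct, was at 158 ± 113 and 385 ± 343 CPM, and Hbb-bs, adult beta globin of erythrocytes, at 564 ± 442 and 288 ± 101 CPM; both overlapped, and their part in other values was not tested.

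The CLP effect in peritubular libraries was then set against that in the other compartments of the same 8 mice. An interaction test over 32 microdissected libraries, blocked by mouse, compared the peritubular change with the mean change in arterioles, glomeruli and venules, and 2 of 14272 genes passed (0.014%), 1 with the higher change in peritubular libraries (0.00701%), while 6.42% had an unadjusted p under 0.05. Within the other compartments alone, CLP against sham gave calls for 0.0897% of genes in arterioles, 0.585% in glomeruli and 0.0705% in venules.

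Esyt1, a tether between endoplasmic reticulum and plasma membrane, passed with a difference of −5.84 ± 1.11 (adjusted p = 0.0196). Peritubular libraries held 71.2, 44.8, 12.1 and 25.8 CPM in sham and 0.501 to 1.08 CPM, 3 to 7 reads, in CLP mice, while the 3 other compartments held 27.7 to 216 CPM in sham and 11.7 to 300 CPM in CLP mice. Within the peritubular comparison alone it did not pass (−5.83 ± 1.99, adjusted p = 0.882). Healthy peritubular libraries held 8.31, 44.4, 66.8 and 0.326 CPM, so 1 of them was as low as the CLP libraries. The Esyt1 call was lost without any 1 of the 4 CLP mice (adjusted p 0.0728 to 0.187).

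Mt1, next in this test, had a smaller rise in peritubular libraries (1.71) than in arterioles (3.35), glomeruli (3.45) and venules (1.98), a difference of −1.25 ± 0.27 that missed the threshold (adjusted p = 0.0585) and passed with RLE scaling (adjusted p = 0.0289) and without sham mouse 1 (adjusted p = 0.0462). In CLP mice the level was 915 to 2196 CPM in peritubular libraries, 3129 to 6107 CPM in venules, 6920 to 16310 CPM in glomeruli and 12390 to 30390 CPM in arterioles. The peritubular range lay below the 3 others, of which glomeruli and arterioles overlapped. For Mt2 the difference was −0.59 ± 0.26 (adjusted p = 0.743). Rasl12, a small GTPase (4.83 ± 1.09, adjusted p = 0.11), and Lrrc8a, a subunit of the volume-regulated anion channel (−2.44 ± 0.57, adjusted p = 0.144), followed.

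**Figure D5:**
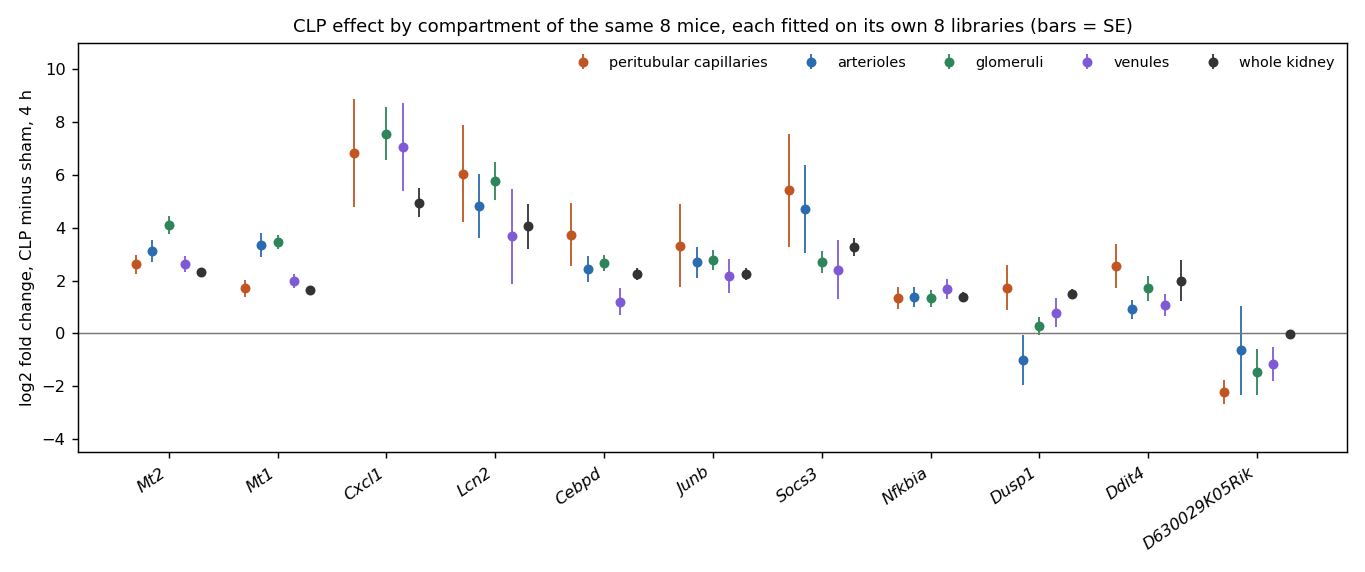
Log2 fold change, CLP minus sham at 4 h, with its SE (bars), of 11 genes in peritubular capillaries, 3 other microdissected compartments and whole kidney of the same 8 mice, each fitted on its own 8 libraries. Cxcl1 was not tested in arterioles. Peritubular Mt1 lies under arterioles and glomeruli, and Nfkbia is at 1.34 to 1.68 in all 5.

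Against whole kidney, 1 of 14041 genes passed (0.00712%), and 4.31% had an unadjusted p under 0.05. D630029K05Rik was at 178 to 278 CPM in whole kidney of sham and 194 to 275 CPM in that of CLP mice, a change of −0.03 ± 0.15, and its peritubular change differed by −2.23 ± 0.47 (adjusted p = 0.0382). The call was lost when only genes counted in all 8 peritubular libraries were tested (adjusted p = 0.998) and without sham mice 1, 2 or 3 or CLP mice 2 or 3 (adjusted p 0.22 to 0.645). In venules, the fold change was −1.15 ± 0.63. Next in order were Mep1b, a brush border protease subunit (3.41 ± 0.81, adjusted p = 0.193), Psap, the precursor of the saposins (−1.20 ± 0.30, adjusted p = 0.276), the small heat shock protein gene Cryab (2.72 ± 0.70) and Aqp1 (−1.31 ± 0.35, both with adjusted p = 0.508). For Mt1, peritubular and whole kidney changes differed by 0.04 ± 0.30, with levels of 1836 to 2619 CPM in whole kidney of CLP mice.

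Some inflammatory genes that did not pass in peritubular libraries passed in other compartments of the same mice. Cxcl1 rose in glomeruli (7.56 ± 0.99, adjusted p = 0.000246) and whole kidney (4.95 ± 0.54, adjusted p = 0.00403), beside 6.83 ± 2.03 in peritubular libraries, where the error was larger. Cebpd rose in arterioles (2.44 ± 0.48), glomeruli (2.67 ± 0.30) and whole kidney (2.26 ± 0.22), beside 3.74 ± 1.20. For Nfkbia, whole kidney gave 1.39 ± 0.17 (adjusted p = 0.000395) and peritubular libraries 1.34 ± 0.41, and the difference was 0.01 ± 0.40 (unadjusted p = 0.975). A p that misses the threshold does not show that the compartments responded alike.

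The whole kidney of these mice gave 348 calls of 13835 genes (2.52%), 286 higher (2.07%) and 62 lower (0.448%). Of the 286, 176 were tested in peritubular libraries, where 33 had CLP values wholly above sham and 1 wholly below, with a median of 0.88. Over the 8840 genes tested in both, these shares were 2.04% and 1.31%, and the median was −0.15. Of the 62 lower genes 40 were tested, 0 lay wholly above and 2 wholly below, and the median was −1.10. Both lists were chosen on tissue of the same mice and are given as a description, with no test.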

How the data were processed

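RNA of 140 mouse kidney libraries was read with Lexogen QuantSeq, per the labels' protocols. The authors deposited raw counts per Ensembl gene for 34255 genes. The submitters' processing notes name STAR 2.7, SAMtools 1.9, HTSeq 0.13 and featureCounts and both GRCm38.p6 and GRCm39, with no role, and the strand setting and treatment of multi-mapped reads are not given in the sources used here. Groups came from the labels, and positions from GENCODE on GRCm38 by gene ID (8856 of 8860 genes found). The hour listed in the table differed from the labels for 20 healthy libraries, and the labels were used.

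Counts of the 8 peritubular libraries were filtered by filterByExpr, scaled by TMM and tested with edgeR 4.0.16 (R 4.3.3; robust quasi-likelihood F test, two-sided, Benjamini-Hochberg adjustment). Interactions used 32 or 16 libraries with mouse as a block. The fits were tested on simulated data. limma 3.58.1 and DESeq2 1.42.0 served as alternatives. Named genes were those that passed, filled up to 12 per direction by smallest p among non-overlapping genes counted in all 8 libraries at a mean of 5 CPM or more, and members of the gene lists chosen by level, p and non-overlap. Members and lists were chosen with earlier results of these data known. The labels call the libraries biological replicates, and the replicate numbers belong to different mice (correlations of same-numbered deviations −0.007 to 0.008). Some genes, among them 1 that passed, are not reported here.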

Additional observations from a re-analysis of the deposited data

Results flagged for a closer look

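In 180 groups of 4 libraries (90 genes, sham and CLP, on log2(CPM + 0.5)), 17 had 1 library whose gap to the nearest other, as a share of the group's range, passed Dixon's 95% limit. Chance flags about 1 in 20 groups, here 9. Sham replicate 2 was the library apart for Tnip1 (12.8 CPM, gap share 0.996), Slc5a10 (1473 CPM, 0.861), Gtf2i (686 CPM, 0.852), Lrrc8a (394 CPM, 0.939) and, on the low side, Klf13 (3.58 CPM, 0.907). Sham replicate 4 was above its group for Cebpd (24.3 CPM, 0.922), Lgals9 (0.532 CPM, 0.846) and Gbp5 (7.88 CPM, 0.876). Sham replicate 1 was above it for Fgg (4.29 CPM, 0.913) and below it for Socs3 (0.358 CPM, 0.849), both at a few reads in most libraries.

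Among CLP libraries, replicate 1 was above the others for Klf13 (401 CPM, 0.924) and Rplp0, a ribosomal protein (438 CPM, 0.847), and below them for Vegfb (7.53 CPM, 0.833). Replicate 4 was below for Prss8 (100.1 CPM, 0.914) and S100a9 (0.417 CPM, 0.912) and above for Flt1 (274 CPM, 0.875), and replicate 2 was above for Esyt1 (1.08 CPM, 0.886).

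The CLP effect differed between compartments by the interaction test for Esyt1 against the other microdissected compartments (difference −5.84 on the log2 scale) and for D630029K05Rik against whole kidney (−2.23). Each call was lost when some single mice were left out, as given with the comparison.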

How the results depend on the processing

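Against 4 genes in the peritubular comparison, 0 passed with all 28 peritubular libraries in the fit, 2 with healthy mice (12 libraries), 12 with no filter beyond 1 count and 93 with DESeq2 (59 higher and 34 lower). The alternatives of scaling, of a stricter filter, of no robust fit and of voom gave 3 to 5, and leaving out each library in turn gave 1 to 3. Only Mt2 passed in every leave-one-out fit. The cause of these differences was not tested, and each leave-one-out fit also held fewer libraries. The median log2 fold change of all genes moved by 0.15 with library totals alone, 0.104 without the filter, 0.259 with voom and 0.288 with the replicate block.

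With the replicate number as a block 6 genes passed, the 4 among them. Same-numbered mice did not deviate together across genes (correlations 0.007, −0.007, 0.008 and −0.003). In libraries that vary this much from gene to gene, such values cannot exclude a pairing.

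Against the other microdissected compartments 2 genes passed, 3 with RLE scaling and 0 to 5 without single mice. Against whole kidney 1 passed, 0 among genes counted in all 8 peritubular libraries and 0 to 7 without single mice. Whole kidney alone gave 348, 520 with DESeq2 and 219 to 375 without single libraries.

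Over 90 named genes and 1708 gene and setting combinations, 1646 kept direction and side of the threshold. Direction reversed for Serpinf2 (0.20) and Flt1 (0.08) without sham replicate 2, Flt1 with voom (0.07), and Cryab without sham replicates 1 (−0.03) or 2 (−0.02) or CLP replicate 3 (−0.24), none of them called. Leaving out single libraries gave −0.51 to 0.20 for Serpinf2, −0.74 to 0.08 for Flt1 and −0.24 to 2.87 for Cryab. The Mt1 difference from whole kidney reversed with RLE scaling (−0.05) and without sham 2 (−0.02), CLP 1 (−0.12) or CLP 3 (−0.05), with a range of −0.12 to 0.27 without single mice. Counts under 3 reads, 0.25 to 0.554 CPM, limit what these libraries can show.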

Other observations

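Sham mice 2 and 3 had the lowest pair of Ddit4 values among the 4 sham mice in every compartment of these animals, a pattern noticed after the values were seen. Ddit4 was at 130, 8.87, 16.5 and 230 CPM in peritubular libraries of sham mice 1 to 4 and at 217, 33.9, 32.8 and 232 CPM in whole kidney. In glomeruli it was at 507, 143, 50.5 and 526 CPM, in venules at 448, 97.9, 126 and 434 CPM, and in arterioles at 905, 343, 284 and 818 CPM.

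Nfkbia, another gene that glucocorticoid is known to induce, had its lowest pair in the same mice in each compartment. It was at 270, 123, 132 and 274 CPM in peritubular libraries, at 245, 175, 203 and 318 CPM in whole kidney and at 733, 446, 401 and 1289 CPM in glomeruli. Other glucocorticoid targets were mixed in peritubular libraries. Errfi1, at 292, 95, 104 and 160 CPM, shared this lowest pair, as did Mt1 and Mt2. Per1, at 0.894, 85.6, 102 and 36.3 CPM, had its highest pair in these mice. Fkbp5, Klf9 and Zbtb16 did not share the lowest pair either. Mice have no order, these mice were not averaged or tested as a group, and no cause was tested.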
